A study of Mus musculus with 30 samples.

Results

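The carcinomas compared here differ in 1 milk gene by definition: beta-casein, Csn2, read 6 RNA extracts high and 4 low among the 15 extracts of the series. All came from mammary tumours of Myc transgenic mice, and each was set on 2 arrays, with channels exchanged, against 1 shared reference RNA. The high extracts are 546-B, 547-A, 567-B, 579-A, 579-B and 595-A, and the low ones 548-A, 550-A, 579-D and 579-E. They were chosen by the Csn2 probe alone, with a mean log2 ratio to the reference above 7 in the first class and below 2 in the second. The 5 extracts in between, 540-B, 546-A, 561-B, 579-F and 597-B, entered no test and are given beside the classes as a description.

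No other treatment, age, strain or transgene promoter is given in the sources used here, and every group carries the transgene, so no comparison with tissue lacking it was possible. What the number and letter of a code mark is not given, and whether extracts come from separate animals is not stated: the p-values measure the scatter of these extracts alone, part of which may be technical. Number 579 stands on 2 high and 2 low extracts, and on 1 between them. The labels place 550-A on both arrays and 595-A on 1 array under tumour progression, and the other 8 class extracts under the change from epithelial to mesenchymal cells.

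In the lactating gland, alveolar epithelial cells make caseins, whey proteins and milk fat. Prolactin binding to its receptor activates the kinase Jak2, which phosphorylates the transcription factor Stat5; Stat5, with the glucocorticoid receptor and the alveolar regulator Elf5, switches on milk protein genes. Fatty acids for the milk fat globule are made in the same cells under control of the factor encoded by Srebf1. Mammary carcinomas can keep parts of this secretory programme.

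As deposited, Csn2 read 9.29 in 547-A, 8.61 in 567-B, 8.36 in 579-A, 8.0 in 595-A, 7.85 in 546-B and 7.60 in 579-B. It read 1.76 in 548-A, 0.60 in 579-D, 0.60 in 579-E and -0.04 in 550-A. The extracts nearest to the limits were 579-B inside and 561-B outside, at 7.60 and 6.46, and 548-A inside and 597-B outside, at 1.76 and 3.10. On single arrays, all high extracts stayed above 7 and the low ones below 2 except for 548-A, at 2.02 in channel 2; 561-B read 7.73 on one array and 5.19 on the other. Csn2 is measured by 1 probe, and since it chose the classes its difference is no finding. Which channel is the numerator of the ratio is not stated. Values were turned so that Myc is positive, which makes extract over reference the likely direction, since the mice carry a Myc transgene. Turning all of them would swap the names of the classes and leave each gene's direction relative to Csn2 as it stands.

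**Figure D1:**
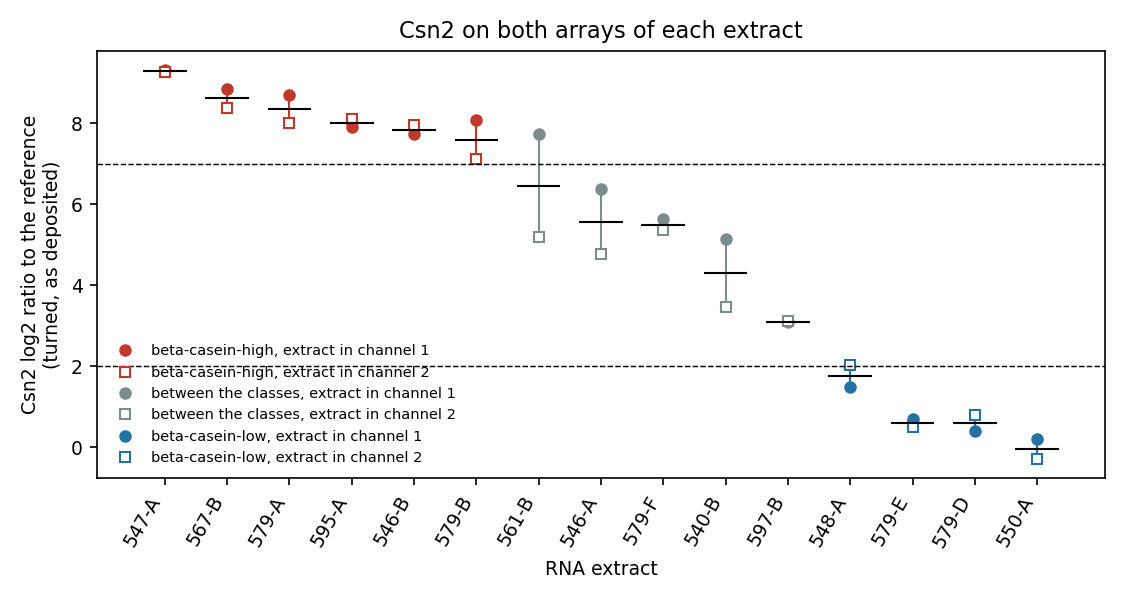
Csn2 log2 ratio to the reference, turned but otherwise as deposited, on both arrays of the 15 extracts (filled circles, extract in channel 1; open squares, channel 2; bars, mean). Dashed lines stand at the limits of 7 and 2 that chose the classes; the means fall from 9.29 in 547-A to -0.04 in 550-A.

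Arrays held 13434 to 21991 values, and their number limits the precision. Extract 548-A was the thinnest: 4041 of the tested probes rested on 1 array there, against 1338 in 550-A and 282 to 768 in the other 8. The paired arrays of a class extract correlated over probes at r of -0.116 (579-E) to 0.336 (567-B) after turning. Single values thus differed much between the arrays of an extract. How much of this is noise and how much a bias of the channel, whose sign is changed by turning, was not tested. A value from 1 array keeps such a bias. Array medians also differed, and over genes the median difference between the classes was 0.25 as deposited. After subtraction of each array's median it was 0.01, and all values below are on that scale. Both classes read high for epithelial genes. Epcam, an epithelial adhesion protein, read 2.83 ± 0.11 (SD, n = 6) in the high and 2.61 ± 0.23 (SD, n = 4) in the low class, and Krt8, a luminal keratin, 2.03 ± 0.45 and 2.23 ± 0.60. Myc read 3.06 ± 0.29 and 3.10 ± 0.52.

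Whey acidic protein, encoded by Wap, was the gene that parted the classes most clearly. Its probe 16668 read 7.60 in 547-A, 5.99 in 567-B, 6.73 in 579-A, 6.42 in 595-A, 8.02 in 546-B and 7.17 in 579-B. In the low class it read 2.55 in 550-A, 0.10 in 579-E, -0.53 in 579-D and -2.21 in 548-A. The classes did not overlap. The difference was 7.01 ± 0.77 (SE) on the log2 scale, a 129-fold ratio, with an adjusted p of 0.0341 by limma with Benjamini-Hochberg adjustment over all 14634 probes tested.

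That probe was the 1 probe that passed an adjusted p of 0.05, 0.00683% of those tested, and 0 probes passed in the lower direction. At an unadjusted p under 0.05 limma gave 718 probes higher and 627 lower, 9.19% of the probes tested, and the next adjusted p was 0.117. The extracts were chosen on the same arrays, so the test asks which genes went with Csn2 among these extracts and is no replication of it. The call for Wap was lost when 546-B, 547-A, 579-A, 579-B, 579-D, 579-E or 595-A was left out, with adjusted p from 0.0684 to 0.16 by limma and differences from 6.80 to 7.12. It rested on 1 array in 548-A and 550-A. In the extracts between the classes this probe read 8.02 in 540-B, 5.77 in 561-B, 4.05 in 579-F and -0.29 in 597-B, an order unlike that of Csn2.

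A second Wap probe, 8519, did not pass. It read 6.22 to 9.75 in the high class (median 7.17) and 4.50 in 548-A, 4.17 in 579-D, 3.45 in 579-E and 2.81 in 550-A. The classes did not overlap here either, with a difference of 3.72 ± 0.62 (SE) and an adjusted p of 0.183 by limma. The probes disagreed on the low class: 550-A was its highest extract on probe 16668 and its lowest on 8519, and 548-A the reverse. A fit on the 20 single arrays had a term for the channel and allowed the 2 arrays of an extract one correlation (0.114). It called both Wap probes among 14 higher and 15 lower. The 2 arrays hold 1 RNA, and at this correlation they count nearly as separate extracts. The p-values of that fit may therefore be too small.

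The other milk protein genes were mixed, and none passed. Of 17 listed casein, whey and other milk protein genes other than Csn2, 15 were on the array and 11 were tested, with Wap represented by probe 8519. At an unadjusted p under 0.05 4 of the 11 were higher and 0 lower, where 4.82% of all 11037 genes were higher and 4.45% lower. Besides Wap these were Csn3, Glycam1 and Folr1, 3 of 10. The median difference of the 11 was 0.73, against 0.01 over all genes. In 2 of the 11, Wap and Folr1, which encodes a folate receptor, the classes did not overlap in the higher direction, as in 1.14% of all genes.

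Kappa-casein, Csn3, which keeps the casein micelle in suspension, read 7.99 in 547-A, 8.54 in 567-B, 7.93 in 579-A, 7.04 in 595-A, 5.07 in 546-B and 7.82 in 579-B. It read 5.97 in 548-A, 5.63 in 550-A, 4.0 in 579-D and 2.29 in 579-E. Only 546-B of the high class fell within the low range, and the difference of 2.93 ± 0.81 (SE) had an adjusted p of 0.402 by limma. Within number 579 it was 4.73, and among the other numbers 1.36.

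Glycam1, a mucin-like glycoprotein of milk, read 4.41 in 547-A, 4.0 in 567-B, 2.0 in 579-A, 7.72 in 595-A, 2.50 in 546-B and 2.22 in 579-B. It read 3.01 in 548-A, 0.77 in 550-A, -0.22 in 579-E and -0.70 in 579-D. The value of 548-A, from 1 array, exceeded those of 3 high extracts, and the difference of 3.10 ± 1.12 (SE) had an adjusted p of 0.457 by limma. Folr1 differed by 0.90 ± 0.23 (SE), with an adjusted p of 0.363.

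Further milk protein genes had no value in at least 1 class extract and were left out of the test, so their values are given as a description. Alpha-S1-casein, Csn1s1, was measured on 18 of the 20 arrays but had no value in 548-A. In a fit that asked only for 2 extracts a class, Csn1s1 differed by 6.74 ± 0.99 (SE), with an adjusted p of 0.29 by limma. It read 5.37 to 8.43 in the 6 high extracts and 2.80, -1.03 and -1.33 in 550-A, 579-E and 579-D. Alpha-lactalbumin, Lalba, the regulatory subunit of lactose synthase, read 2.39 to 7.46 in the high class and 2.25, 2.15 and 0.50 in 550-A, 579-D and 579-E. Both kept the measured extracts of the classes apart, Lalba narrowly, between 579-A and 550-A. Neither had a value in 548-A. With 548-A left out, 3.49% of all tested genes were apart in the higher direction. Csn1s2a, a second alpha-casein, was measured on 8 of the 20 arrays, at 4.24 to 9.16 in 4 high extracts and at -0.15 in 548-A and -1.14 in 579-E.

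In other milk genes the classes overlapped. Trf, the iron carrier transferrin, read 10.46 in 548-A and 4.53 to 7.66 in the high class on its best-covered probe, with a difference of -1.10 ± 1.10 (SE). Its 3 further probes gave 0.11, -0.24 and -0.71. Ltf, lactoferrin, spanned -1.48 (548-A) to 7.22 (579-E) within the low class alone, around a difference of 0.83 ± 1.32 (SE). Lpo, lactoperoxidase, differed by -1.35 ± 0.99, and Csn1s2b, a further casein, by 0.52 ± 0.68.

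**Figure D2:**
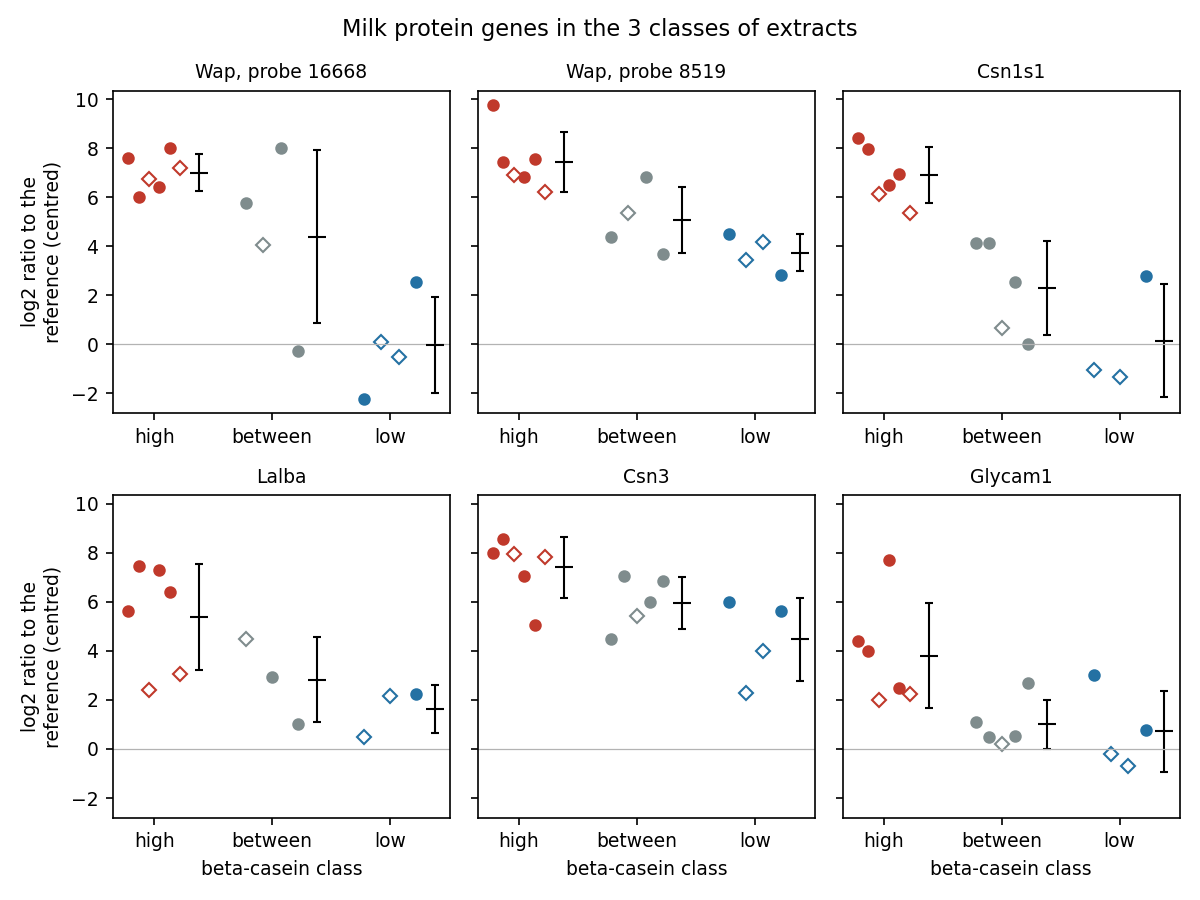
Median-centred log2 ratios of 5 milk protein genes (Wap on both probes) by extract in the high, between and low classes; open diamonds mark extracts of number 579, and bars give mean and SD of each class. Wap parted all class extracts, and Csn1s1 and Lalba parted the measured ones, with no value in 548-A. Csn3 and Glycam1 overlapped in 1 high extract and 1 low extract respectively.

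The stretches of 250 bases before the transcript start of 2 casein genes, Glycam1 and Wap are shown because Stat5-bound elements of some milk genes are known from this stretch. They come from RefSeq, build GRCm38.p6, at chr5:87699426-87699675 (minus strand) for Csn2, chr5:87665958-87666207 (plus) for Csn1s1, chr15:103565082-103565331 (minus) for Glycam1 and chr11:6638650-6638899 (minus) for Wap. Capitals mark TTCNNNGAA, the spaced palindrome that Stat factors bind, which reads the same on both strands and was the only motif searched.
Csn2: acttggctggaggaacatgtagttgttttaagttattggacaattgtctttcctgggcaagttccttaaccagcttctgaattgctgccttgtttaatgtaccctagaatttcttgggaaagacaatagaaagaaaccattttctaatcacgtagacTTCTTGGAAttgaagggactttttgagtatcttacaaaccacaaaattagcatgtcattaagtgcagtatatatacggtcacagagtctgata
Csn1s1: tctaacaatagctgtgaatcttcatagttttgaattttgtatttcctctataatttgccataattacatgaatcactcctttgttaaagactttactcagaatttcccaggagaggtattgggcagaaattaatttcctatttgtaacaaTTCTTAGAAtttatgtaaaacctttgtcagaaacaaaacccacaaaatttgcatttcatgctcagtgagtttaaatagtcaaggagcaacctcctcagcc
Glycam1: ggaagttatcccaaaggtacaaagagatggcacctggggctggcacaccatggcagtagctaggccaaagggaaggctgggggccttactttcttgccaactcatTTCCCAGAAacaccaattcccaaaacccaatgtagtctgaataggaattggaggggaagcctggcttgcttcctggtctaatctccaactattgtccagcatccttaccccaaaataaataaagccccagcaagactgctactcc
Wap: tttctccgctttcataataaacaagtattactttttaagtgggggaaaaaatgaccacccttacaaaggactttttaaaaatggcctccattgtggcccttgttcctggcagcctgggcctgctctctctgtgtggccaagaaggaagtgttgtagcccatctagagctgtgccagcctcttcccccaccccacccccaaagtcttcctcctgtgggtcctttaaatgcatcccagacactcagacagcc
The motif occurred once in each of the first 3 and not in the window of Wap. Bases further upstream were not searched, so its absence holds for this window only. It began 93 bases before the start in Csn2, 100 in Csn1s1 and 145 in Glycam1, and 7.02% of the 32851 RefSeq windows of this length hold it. Of 15 milk and lipid genes looked for, 10 had a window, and the motif was not in those of Csn1s2a, Lalba, Acaca, Srebf1, Fasn or Plin2. A match is a description of letters and was not tested as a site.

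Genes of fatty acid and milk fat globule formation lay mostly higher in the high class, 20 of 26 with a difference above 0. Of these 26 tested genes 8 had an unadjusted p under 0.05 in the higher direction and 3 in the lower, that is 30.8% and 11.5%, against 4.82% and 4.45% of all genes. None passed after adjustment; the lowest adjusted p was 0.235 by limma. In 5 of the 26 the classes did not overlap in the higher direction and in 1 in the lower, 19.2% and 3.85%, where 1.14% and 1.01% of all genes did so. The median difference was 0.36, and it was 0.41 within number 579 and 0.43 among the other numbers. The counts of 8 and 3 held in each of the 10 fits with 1 extract left out. Cidea and Btn1a1 are named for the size of their difference, and the other genes of this list were chosen after their values were seen.

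The regulator Srebf1 read 1.69 in 547-A, 2.66 in 567-B, 2.03 in 579-A, 2.43 in 595-A, 2.60 in 546-B and 2.14 in 579-B. It read 1.22 in 548-A, 0.57 in 579-E, 1.10 in 579-D and 1.30 in 550-A. Every high extract lay above every low one, with a mean difference of 1.21 ± 0.25 (SE) and an adjusted p of 0.261 by limma. Cidea, a lipid droplet protein with a role in milk fat secretion, had the largest difference of the list, 2.25 ± 0.84 (SE), with 548-A at -4.22 on 1 array and 579-E, at 0.74, above 2 high extracts.

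Acaca, acetyl-CoA carboxylase, the first committed enzyme of fatty acid synthesis, read 0.17 to 1.14 in the high class (median 0.73) and -0.25 in 548-A, -0.28 in 550-A, -0.95 in 579-D and -1.41 in 579-E. The difference was 1.44 ± 0.28 (SE), adjusted p 0.235, on this probe, and 0.85 and 0.48 on its 2 further probes, where the classes overlapped. Fasn, fatty acid synthase, read 1.35 to 2.07 against 0.47 to 1.26, a difference of 0.75 ± 0.23. The single-array fit with a channel term called Acaca and Srebf1 higher, with adjusted p of 0.0117 and 0.0174 by limma. It counts the 2 arrays of an extract nearly as separate extracts, so these values are no added support.

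Lpl, the lipase that releases fatty acids from circulating triglyceride, read -0.05 to 1.10 in the high and -0.62 to -0.38 in the low class, a difference of 1.07 ± 0.24 (SE). Btn1a1, butyrophilin, a membrane protein of the milk fat globule, read 0.35 to 2.77 against -0.80 to 0.19, a difference of 1.72 ± 0.52. The lipid droplet coat Plin2 differed by 1.13 ± 0.31 and Xdh, xanthine oxidoreductase of the globule membrane, by 0.85 ± 0.25; each overlapped. Opposite values were seen in the desaturase Scd2 (-0.85 ± 0.27, no overlap), the sterol sensor partner Insig1 (-0.99 ± 0.32) and the elongase Elovl5 (-0.99 ± 0.30). The list therefore did not lean one way throughout.

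Lpl and other fat-cell genes belong also to adipocytes, so the adipocyte list is given beside these values. Of its 15 tested genes 2, Lpl and Cebpa, did not overlap in the higher direction, 13.3% against 1.14% of all genes, and 0 in the lower. The mean log2 ratio of the list ran from 0.41 to 0.79 in the high extracts and from -0.24 to 0.54 in the low ones. The fat-cell hormone Adipoq differed by 0.32 ± 0.36 (SE) and the fatty acid carrier Fabp4 by 1.29 ± 0.94. The median of the adipocyte list was -0.07 within number 579 and 0.82 among the other numbers; its part in the lipid values was not tested. In whole-tumour RNA, fewer cells of a type and less RNA per cell cannot be told apart.

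The pathway from prolactin to Stat5 showed no common direction. Of 24 listed genes 22 were on the array and 20 tested; Prlr, the receptor, and Stat5b were not among those named on the array. At an unadjusted p under 0.05, 1 was higher and 4 lower, 5.0% and 20% against 4.82% and 4.45% of all genes, so the higher share was that of the background. None passed after adjustment, and the lowest adjusted p was 0.402 by limma. The median was -0.09, which became 0.15 without centring of the arrays, below the 0.25 of all genes on that scale. Stat5a was the higher gene, at 0.76 to 2.02 in the high class (median 1.32) and 1.14 in 579-D, 0.57 in 548-A, -0.02 in 550-A and -0.14 in 579-E. Its difference was 1.05 ± 0.33 (SE), with 579-D above 579-B. Jak2 differed by -0.42 ± 0.33 and Jak1 by -0.92 ± 0.34.

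The lower values of the pathway list came from genes of different roles. Igf1r, the receptor of insulin-like growth factor 1, differed by -1.52 ± 0.54 (SE) on its best-covered probe and by -1.38 and -1.17 on its 2 further probes. Socs2, an inhibitor induced by Stat5, differed by -1.50 ± 0.73, Ccnd1, cyclin D1, by -1.22 ± 0.51, and Bcl6, a repressor that competes with Stat5 at some genes, by -1.09 ± 0.31. Of these, Bcl6 alone did not overlap, at -0.83 to 0.34 in the high and 0.40 to 1.31 in the low class. That is 5.0% of the tested list, against 1.01% of all genes in the lower direction. The genes counted as lower were Igf1r, Ccnd1, Bcl6 and the kinase Jak1 (unadjusted p of 0.0197 by limma). Socs2, with an unadjusted p of 0.0648 by limma, was not among them. Other inhibitors and receptors of the list gave 0.43 (Socs1), -0.46 (Socs3), 0.11 (Ghr) and -0.32 (Insr). The count of lower genes was 1 without 579-D.

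The alveolar regulator Elf5 was high in both classes. It read 5.50 in 547-A, 6.14 in 567-B, 4.71 in 579-A, 4.79 in 595-A, 5.95 in 546-B and 4.80 in 579-B, and 5.40 in 548-A, 4.07 in 579-D, 3.18 in 550-A and 3.12 in 579-E. The difference was 1.37 ± 0.49 (SE), with an adjusted p of 0.444 by limma, and 548-A lay inside the high range. Elf5 was highest of all in 579-F, at 7.40, an extract with Csn2 between the limits. Gata3, the regulator of luminal fate, differed by 1.10 ± 0.47, and Sox9, a factor of progenitor cells, by -1.25 ± 0.31. Of 23 tested alveolar and luminal regulators 2 were higher and 1 lower at an unadjusted p under 0.05, with a median of 0.05; these shares, 8.7% and 4.35%, are near the 4.82% and 4.45% of all genes.

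Lactose and transport genes lay on both sides, 6 of 14 tested genes with a difference above 0 and 8 below. At an unadjusted p under 0.05, 1 was higher and 2 lower. These are 7.14% and 14.3%, against 4.82% and 4.45% of all genes. The median was -0.20 (0.04 without centring). The sodium-phosphate carrier Slc34a2 had the largest difference, 1.6 ± 0.45 (SE), adjusted p 0.402 by limma. It was measured on 17 of the 20 arrays, on 1 array each in 579-A, 548-A and 550-A, and mostly as small whole-number ratios (65.4%).

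Beyond Wap, the higher genes that parted the classes best stood on none of the 29 gene lists. The non-overlapping genes of lowest p in the higher direction were then Tenm4, Cplx1, Prtn3, Slc6a12, Slc1a1, Smoc1, Aifm3, Zwilch and Prkar2a, and none of them passed, with adjusted p from 0.126 to 0.235 by limma. These genes were picked over all of their tested probes. Over all 11037 genes, each on its best-covered probe, the classes did not overlap in 126 in the higher direction and in 112 in the lower, 1.14% and 1.01%. Prkar2a is not among the 126, since the classes overlapped on its best-covered probe.

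Tenm4, a teneurin, a large transmembrane protein of cell contacts, read 0.07 in 579-B to 1.27 in 547-A in the high class (median 0.75) and -0.91 in 548-A, -1.04 in 579-D, -1.13 in 579-E and -1.64 in 550-A. The difference was 1.92 ± 0.28 (SE), and a second probe gave 1.86 ± 0.40, again with no overlap. Within number 579 and among the other numbers the first probe gave 1.30 and 2.27, and the second 0.48 and 2.84. Cplx1, complexin, which clamps vesicle fusion, read 3.27 in 547-A, 1.20 in 567-B, 2.66 in 579-A, 3.11 in 595-A, 2.59 in 546-B and 2.21 in 579-B. It read 0.57 in 550-A, -0.08 in 579-D, -0.34 in 579-E and -0.38 in 548-A. Its difference of 2.56 ± 0.39 was 2.65 within number 579 and 2.45 among the other numbers.

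Prtn3, a serine protease known from neutrophils, read 2.97 to 4.20 in the high class and 2.17, 1.82, 0.80 and 0.00 in 550-A, 548-A, 579-E and 579-D. It also read 4.89 in 546-A and 4.22 in 597-B, extracts with less Csn2. Its difference was 3.71 within number 579 and 1.6 among the other numbers. Of the others, the betaine and GABA carrier Slc6a12 differed by 1.93 ± 0.34 (SE), the glutamate carrier Slc1a1 by 1.13 ± 0.20 and the matrix protein Smoc1 by 2.09 ± 0.37. Zwilch, of the kinetochore, differed by 1.16 ± 0.22 and Aifm3, a mitochondrial protein, by 1.15 ± 0.21. Prkar2a, a regulatory subunit of protein kinase A, differed by 2.14 ± 0.42 on this probe, and by -0.14, 0.50 and 0.38 on 3 further probes, where the classes overlapped.

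In the lower direction the genes of lowest p were Creb3l2, Ehd3, Eps8, Tcf4, Laptm4b, Fnbp1l, Rchy1, Ier3, Oxr1 and Ppib, with adjusted p from 0.117 to 0.261 by limma. Creb3l2, a transcription factor tethered in the endoplasmic reticulum that supports secretory capacity, read -0.85 in 547-A, -1.05 in 567-B, -1.13 in 579-A, -1.33 in 595-A, -0.55 in 546-B and -0.80 in 579-B. It read 0.61 in 548-A, 0.29 in 579-E, 0.68 in 579-D and 0.69 in 550-A, so that all high extracts were below and all low ones above the median array value. Its difference of -1.52 ± 0.21 (SE) was -1.45 within number 579 and -1.59 among the other numbers.

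Eps8, a substrate of the epidermal growth factor receptor that regulates actin, read -4.08 to -1.70 in the high class (median -3.43) and -0.60 in 548-A, -0.81 in 579-E, -0.97 in 579-D and -0.99 in 550-A. The difference was -2.36 ± 0.42 (SE). Tcf4, a basic helix-loop-helix factor, read -1.82 to -0.78 against -0.30 to -0.03, a difference of -1.32 ± 0.24. Ehd3 and Fnbp1l, both of membrane traffic, differed by -1.51 ± 0.25 and -1.39 ± 0.25. The lysosomal membrane protein Laptm4b differed by -1.84 ± 0.33, the ubiquitin ligase Rchy1 by -1.03 ± 0.20 and the oxidation resistance gene Oxr1 by -1.21 ± 0.25. Ier3, an early response gene, differed by -1.70 ± 0.34, and Ppib, a proline isomerase of the endoplasmic reticulum, by -0.84 ± 0.18.

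**Figure D3:**
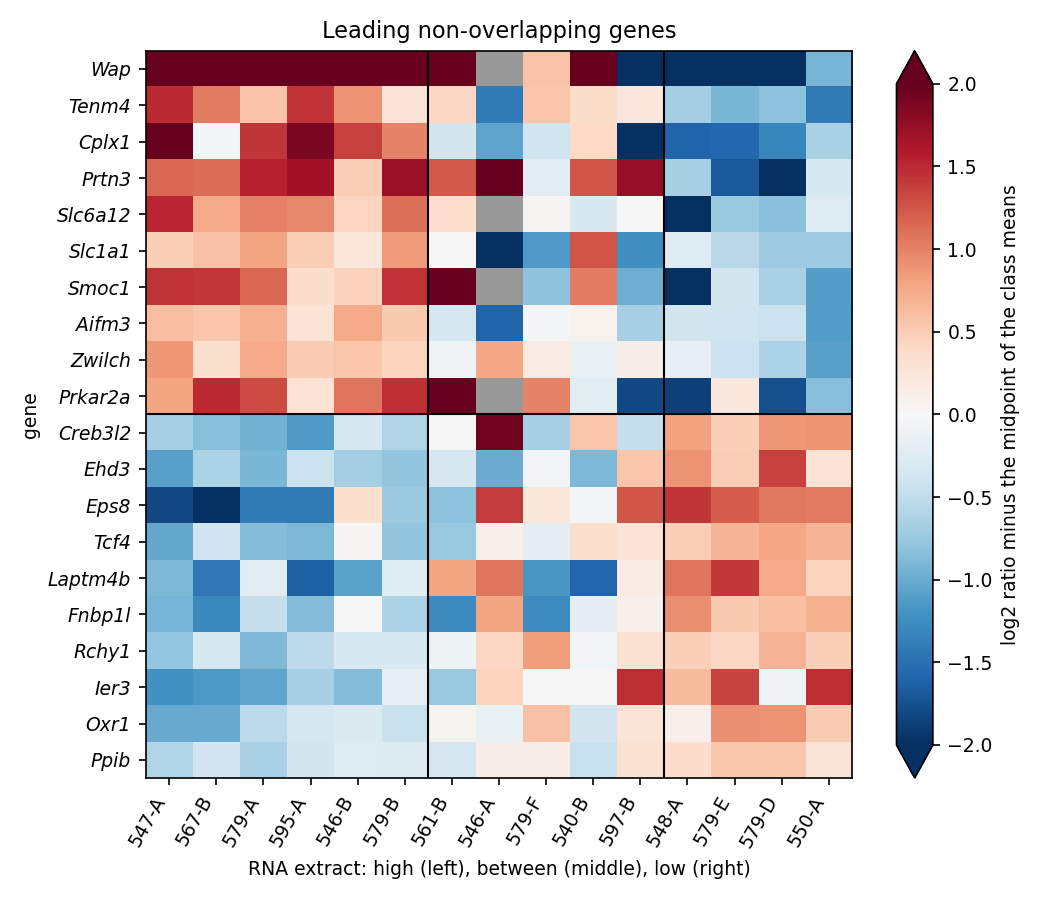
Median-centred log2 ratio of 20 leading non-overlapping genes in the 15 extracts, minus the midpoint of the means of the high and low classes (red above, blue below, grey not measured, colours end at 2). The upper 10 genes are higher and the lower 10 lower in each extract of the high class than of the low class, as the choice of genes requires; the 5 middle extracts took values on both sides.

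Growth signalling outputs lay lower in the high class. Of 13 tested genes induced by the MAP kinase pathway, 0 were higher and 5 lower at an unadjusted p under 0.05, which is 38.5% against 4.45% of all genes, and the median was -0.55. None passed after adjustment. The phosphatase Dusp6, induced by and acting on the kinase Erk, read -2.70 to -0.50 in the high class (median -1.99) and 1.45 in 550-A, 1.40 in 579-D, 0.80 in 548-A and -1.25 in 579-E. Of the low extracts 579-E alone lay within the high range. Its difference was -2.37 ± 0.59 (SE), adjusted p 0.355 by limma, and -2.57 within number 579 and -2.53 among the others.

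Phlda1, a growth factor response gene, differed by -1.87 ± 0.54 (SE). In Spry2, a feedback inhibitor of receptor kinases chosen here after its values were seen, the classes did not overlap, at -1.97 to -0.09 against -0.02 to 0.66. Spry2 alone of the list did so, 7.69% against 1.01% of all genes in the lower direction. The transcription factor Etv4 differed by -0.91 ± 0.40. The count of 5 lower genes became 3 without 547-A, 579-A, 579-B, 579-D or 595-A, 3 without centring and 7 without 579-E. The single-array fit, which counts the 2 arrays of an extract nearly as separate extracts, called Dusp6 lower, with an adjusted p of 0.0315 by limma.

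Genes of the endoplasmic reticulum and secretion, which a secreting cell would need, were not higher where Csn2 was. Of 33 tested genes 0 were higher and 9 lower at an unadjusted p under 0.05, 27.3% against 4.45% of all genes, with a median of -0.30. Creb3l2 and Spcs1, a signal peptidase subunit, did not overlap, 6.06% of the list against 1.01% of all genes in the lower direction. The signal peptidase subunit Sec11c differed by -1.18 ± 0.45 (SE), the retrieval receptor Kdelr3 by -1.15 ± 0.36 and protein disulphide isomerase P4hb by -0.93 ± 0.29, none passing. Without centring the count of lower genes was 2 and the median -0.06, below the 0.25 of all genes on that scale; the count was 5 without 579-D, 4 without 579-E, 6 without 546-B, 547-A, 567-B or 579-B, and 2 without number 579.

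Several gland-secretory genes lay far lower in most high extracts. Car6, a carbonic anhydrase secreted into saliva and milk, read 8.32 in 548-A, 7.01 in 579-E, 6.99 in 579-D and -0.10 in 550-A. It read 6.53 in 546-B and -0.34 to 1.54 in the other 5 high extracts, so that 1 extract of each class lay with the opposite class. The difference was -3.88 ± 1.72 (SE), adjusted p 0.529 by limma. Dio1, a deiodinase that activates thyroid hormone, followed the same extracts: 7.48, 5.58 and 7.07 in 548-A, 579-E and 579-D, 0.27 in 550-A, 5.27 in 546-B and -0.56 to 0.55 in the other 5.

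Fgfr2, a receptor of fibroblast growth factors, read 7.35 in 548-A, 6.02 in 579-D, 1.05 in 550-A and -0.35 in 579-E, and -2.86 to 0.84 in the high class. Cldn10, a claudin of secretory epithelia, and Scgb1b27, a secretoglobin, differed by -4.18 ± 1.22 (SE) and -2.92 ± 1.02. In all 5 genes the classes overlapped. Of the 11 genes tested on this list, 5 were lower and 0 higher at an unadjusted p under 0.05, 45.5% lower against 4.45% of all genes, and none passed; the count of lower genes was 3 without 548-A or 579-D, and the median of the list moved from -1.73 to -0.17 without number 579. The list was written with these genes known to vary among the extracts.

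**Figure D4:**
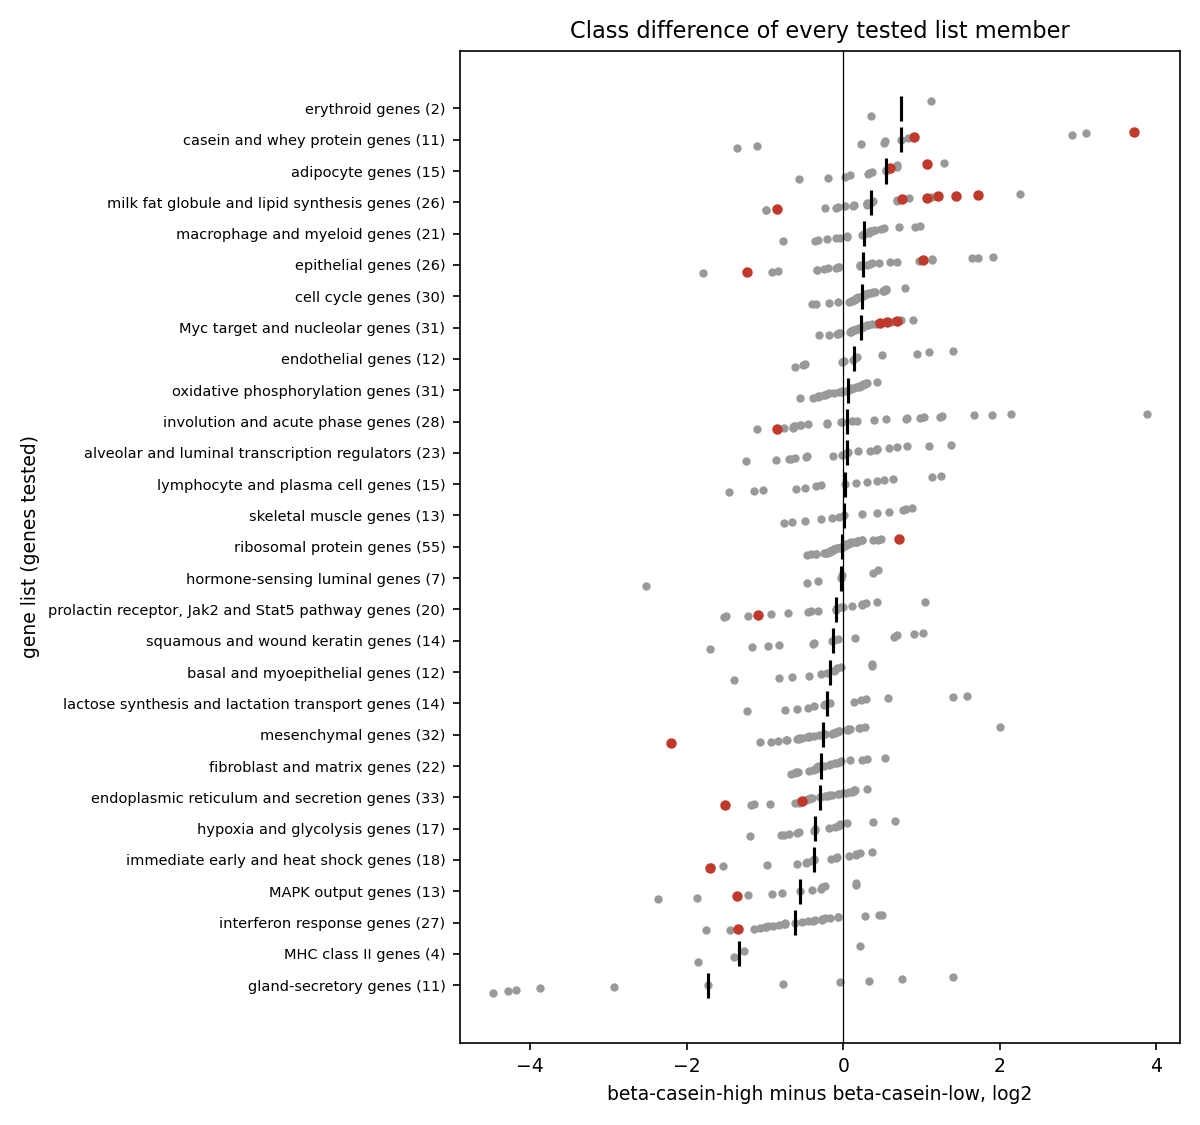
Difference between the high and low classes (log2) for every tested member of the 29 gene lists, sorted by list median (black bar); red points mark genes whose classes did not overlap, and the number of genes tested stands in brackets. The medians run from -1.73 (gland-secretory), -1.33 (MHC class II, 4 genes) and -0.62 (interferon) up to 0.54 (adipocyte), 0.73 (milk protein) and 0.74 (erythroid, 2 genes); Wap is shown by probe 8519.

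In the fibroblast, basal, macrophage, lymphocyte, endothelial and skeletal muscle lists the classes overlapped in every tested gene. Over all genes only 1.14% did not overlap in the higher direction and 1.01% in the lower. Overlap throughout therefore does not set these lists apart. Of 22 fibroblast and matrix genes 0 were higher or lower at an unadjusted p under 0.05, with mean log2 ratios over the list from -1.50 to -0.23 in the high and -2.13 to 1.28 in the low extracts. Their median difference of -0.28 became 0.39 without 550-A, and it was 0.46 within number 579 and -0.93 among the others. Of 12 basal and myoepithelial genes 0, of 21 macrophage genes 1, of 15 lymphocyte and plasma cell genes 1, of 12 endothelial genes 1 and of 13 skeletal muscle genes 0 were higher, and 0 lower in each of these lists. Over all genes these shares are 4.82% and 4.45%. Of 4 MHC class II genes, which mark antigen-presenting cells, 0 were higher or lower at an unadjusted p under 0.05; their median was -1.33, and -0.76 without 550-A. Without 579-E, 3 of the 4 were lower. Cd74, the invariant chain, read -2.79 to 0.27 in the high class and 3.07 in 550-A, 2.20 in 579-D, -0.45 in 548-A and -1.45 in 579-E, a difference of -1.85 ± 0.89 (SE). H2-Ab1 differed by -1.40 ± 0.65, H2-Aa by -1.27 ± 0.80 and H2-Ea by 0.22 ± 0.39. The B-cell receptor gene Cd79b, left out by the filter on missing values, with none in 548-A, and named after its values were seen, read -3.73 to -2.81 in the high class and -1.21, -1.61 and -2.18 in 579-E, 579-D and 550-A. Of the lymphocyte genes tested, Cd79a differed by 0.63 ± 0.50 (SE), Ms4a1 by -0.49 ± 0.29 and Cd3e by -1.46 ± 0.72. In that list 8 genes lay above 0 and 7 below, with a median of 0.02. The leukocyte gene Ptprc differed by -0.37 and the endothelial gene Pecam1 by -0.62. Ratios to a reference have no true zero, so the absence of a cell type cannot be read from them.

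Of the genes by which a change from epithelium to mesenchyme is commonly read, Cdh1 and Vim gave differences below their errors. Cdh1, the epithelial cadherin, differed by -0.33 ± 0.95 (SE) and Vim, vimentin, by -0.44 ± 0.52 on the log2 scale. Among 26 epithelial genes 4 were higher and 2 lower at an unadjusted p under 0.05, 15.4% and 7.69% against 4.82% and 4.45% of all genes. The claudin Cldn7 (1.02 ± 0.29) and the cadherin Cdh3 (-1.23 ± 0.26), named after their values were seen, did not overlap. Each is 3.85% of the list, against 1.14% of all genes in the higher and 1.01% in the lower direction. Of 32 mesenchymal genes 1 was higher and 1 lower at an unadjusted p under 0.05, 3.12% each; the latter was Foxc2, a forkhead factor, at -2.73 to -0.71 in the high and -0.44 to 1.79 in the low class. Krt5, a basal keratin, differed by -0.08 ± 0.83, that is 2.09 within number 579 and -2.16 among the other numbers.

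Proliferation genes gave small differences, and the number called depended on 548-A. Mki67, a marker of cycling cells, read -0.47 to -0.09 in the high and -1.03 to 0.33 in the low class, with a difference of 0.07 ± 0.26 (SE). Of 30 cell cycle genes 1 was higher and 0 lower at an unadjusted p under 0.05, with a median of 0.24. The share of 3.33% is below the 4.82% of all genes. Without 548-A, 10 were higher. Of all 14634 probes 1592 then had such a p, against 1345 with all extracts. These are probes of both directions together, so they give no share to set beside the 10 genes. The classes then did not overlap in the higher direction in 33.3% of the list, against 3.49% of all genes. With all 10 extracts, the list median was 0.62 within number 579 and 0.002 among the other numbers. Of 31 Myc target and nucleolar genes 5 were higher, 16.1%, and 0 lower, with a median of 0.22; 3 were higher without 547-A, 550-A or 595-A. Without centring 12 of the 31 and 10 of the 30 were higher, when 1334 of all 11037 genes were higher and 157 lower against 532 and 491 with it, so these small shifts depend on how arrays were centred. Ribosomal protein genes had a median of -0.01 over 55 genes, with 1 higher and 0 lower, and oxidative phosphorylation genes one of 0.06 over 31, with 0 in each direction.

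Of 18 immediate early and heat shock genes 0 were higher and 4 lower at an unadjusted p under 0.05, 22.2% lower against 4.45% of all genes, with a median of -0.37 and 1 lower without 579-E. Interferon response genes had a median of -0.62 over 27 genes, which was -0.07 without 579-D. Of the 27, 0 were higher and 2 lower at an unadjusted p under 0.05, 7.41% lower against 4.45% of all genes. Irf1, an interferon-induced factor, was the member without overlap, at -1.43 to 0.00 against 0.27 to 1.34. That is 3.7% of the list, against 1.01% of all genes in the lower direction. Saa1, an acute phase protein, spanned -1.65 (595-A) to 7.64 (579-B) in the high class, around a difference of 3.88 ± 2.01 (SE).

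Number 579 is the only code number with extracts of both classes, which allowed the difference to be read within and without it. Over 11037 genes the difference within number 579 (2 against 2 extracts) and that among the other numbers (4 against 2) correlated across genes at r = 0.04 (Spearman's rho 0.007), with the same sign in 49.3%. Genes are no independent replicates, and both estimates rest on few extracts. A term for the difference between them passed for 0 of 14634 probes by limma, with 1247 at an unadjusted p under 0.05 and a lowest adjusted p of 0.252. That count changed when 550-A or 548-A was left out. These are the only low extracts outside number 579, so each such fit rests on 1 low extract there and its count is not read. Among milk genes, Wap (7.16 and 6.84), Csn3 (4.73 and 1.36) and Glycam1 (2.57 and 2.77) had the same sign in both. Ltf (-1.67 and 3.29), Csn1s2b (-1.11 and 1.72), Fabp3 (-0.27 and 1.40) and Pigr (1.25 and -0.65) did not, nor did 3 of the 4 probes of Trf (1.34 and -1.33 on one of them). The same sign was also seen for Srebf1 (1.26 and 1.09) and Eps8 (-2.21 and -2.46). In Wap, Srebf1 and Eps8 the classes did not overlap, which fixes the same sign in advance. For such genes it is no replication across numbers.

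**Figure D5:**
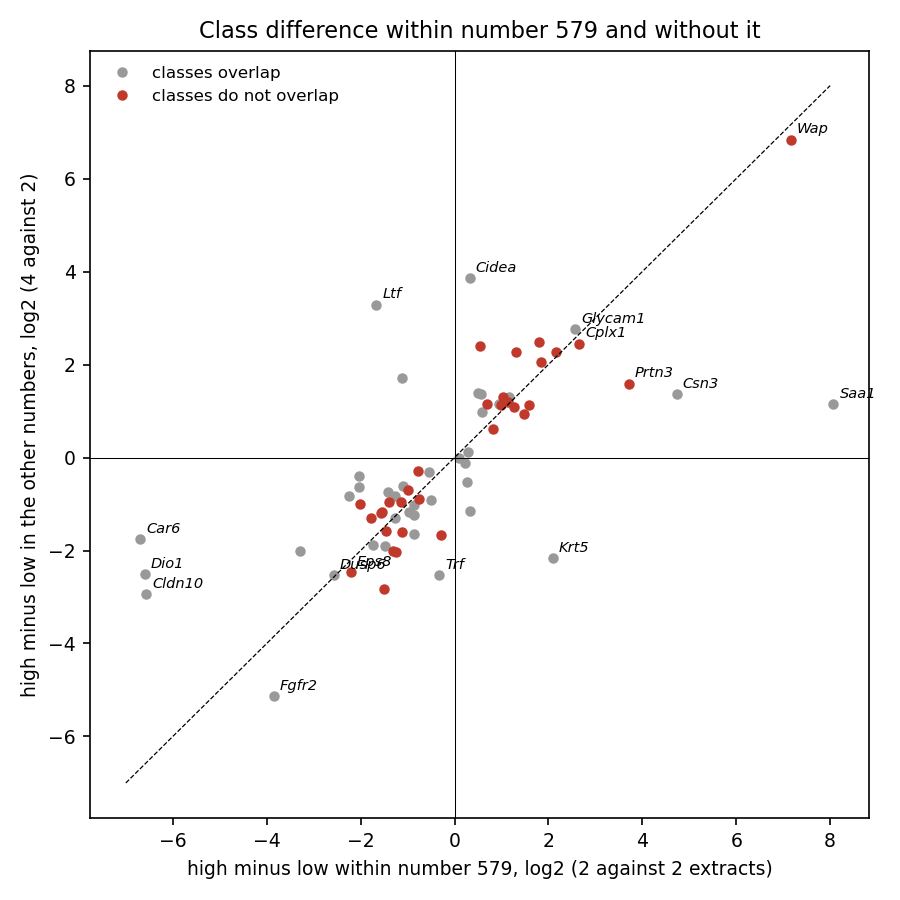
Difference between the high and low classes (log2) within number 579 (x axis) and among the other numbers (y axis) for the 71 genes chosen for the text; red, classes do not overlap; dashed line, equal differences. Most of these genes were chosen for a class difference, which places them along the line; Krt5, Ltf and Saa1 lie far from it.

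Over all 15 extracts, the values most like those of Csn2 were found by Pearson's r over 9929 genes measured in every extract. The highest were Zwilch (0.873), Commd9 (0.853), Xpo4 (0.845), Eif2b1 (0.841) and Dock8 (0.823), and the lowest Tcf4 (-0.904), Ppib (-0.883), Fbxo44 (-0.863), Oxr1 (-0.859) and Ier3 (-0.858). The 10 class extracts enter these values, so they describe the same spread again. None of the 5 highest belongs to the lists of milk or lipid genes; Wap, Csn1s1 and Lalba lack a value in at least 1 extract and were not compared.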

How the data were processed

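The authors deposited log2 ratios of the 2 channels per probe on 30 two-channel arrays (scanner, background correction, normalization and filters: not given in the sources used here); the log2 scale was read from the values. The value 16.61 was taken as missing. Arrays with the extract in channel 2 were turned, each array's median over the 6801 probes measured on all 30 arrays was subtracted, and the 2 arrays of an extract were averaged. Probes needed values on 16 of the 20 class arrays and in all 10 extracts, which left 14634 besides Csn2. The classes were compared by lmFit and eBayes of limma 3.58.1 (R 4.3.3), with Benjamini-Hochberg adjustment over all probes, after a check on simulated data. In gene lists each gene had 1 probe, that with most arrays, ties by the lowest number; genes come from the platform annotation, which gives 12016 of the probes 1 symbol; the others are unnamed here. An adjusted p under 0.05 passed. Classes that do not overlap have every high extract on one side of every low one.

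Named genes were: passing non-overlapping genes; in each direction up to 10 non-overlapping genes of lowest p; casein, whey and prolactin pathway genes; the 1 or 2 list members of largest difference; a fixed set (Myc, Cdh1, Vim, Krt8, Krt5, Mki67, Elf5, Car6, Dio1, Fgfr2, Saa1, Ptprc, Pecam1); and those most and least like Csn2. Further named list members were chosen after their values were seen. The extracts and lists were chosen with earlier results of these data known.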

Additional observations from a re-analysis of the deposited data

Results flagged for a closer look

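Among 71 of the genes named above, 5 values stood far from the rest of their class by Dixon's criterion. Chance meets that criterion in about 1 in 20 groups, and 142 groups were looked at. In the high class 546-B read 6.53 for Car6 and 5.27 for Dio1, apart from the other 5 extracts. In the low class 550-A read -0.10 for Car6 and -0.90 for Aifm3, and 579-E read 2.27 for Epcam, each below the other 3. No cause was tested.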

How the results depend on the processing

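Of 24 alternatives for the difference of Wap on probe 16668, 12 kept the call and 12 lost it, with differences from 5.21 to 8.94. The adjusted p by limma ran from 5.09e-05 to 0.29. Its lowest value came from the single-array fit, which counts the 2 arrays of an extract nearly as separate extracts. The number of probes higher in the high class was 0 with values on 24 of 30 arrays or on all 20 arrays, filters that leave the called Wap probe out of the test, and 0 with no filter, within number 579, without number 579, in a fit of all 15 extracts in 3 classes and with Csn2 as a number; 14 on single arrays, where 15 were lower; and 2 without 550-A and 595-A. With 1 extract left out it ran from 0 to 3, and none was lower. Probes differing between number 579 and the others ran from 0 to 151 with 1 extract left out. No paired analysis was possible because no label pairs single high with single low extracts; number 579, which stands on both classes, was read on its own, and number as a random block left the count at 1. Without 548-A, added after the data were seen, genes whose classes do not overlap went from 126 to 385 higher and from 112 to 288 lower, fewer low extracts making this easier; lipid genes then had 6 and 1. The median SE of a difference was 0.34, and the number of extracts limits what could pass.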
